A study of Oryza sativa with 36 samples.

Results

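The brown planthopper (BPH, Nilaparvata lugens) is a sap-sucking insect that feeds in the phloem of the rice leaf sheath, and BPH14 is a resistance gene that encodes a coiled-coil, nucleotide-binding and leucine-rich repeat protein. B14 is a near-isogenic line that carries BPH14 in the indica cultivar 'Wushansimiao', which is its recurrent parent (RP). The comparison described here is B14_late/B14_0: leaf sheaths of B14 after late BPH feeding against leaf sheaths of B14 that were not infested. B14_late plants had carried 8 nymphs of the third instar per seedling, and each B14_late library pooled plants fed on for 24, 48 and 72 h. B14_0 plants carried the same BPH14 gene and no insects. Each group held 3 libraries, so 6 of the 36 libraries of the series were used, chosen by their column names in the deposited gene counts. RP_late and RP_0 (titled WT in the labels), the same stages of the parent without BPH14, had 3 libraries each and were used where the change of B14 was set against that of RP. By the methods each replicate held 15 seedlings at the four-leaf stage. The methods do not state how many seedlings of each feeding time entered a B14_late library. The p-values measure the spread between libraries, each a pool of seedlings.

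Phloem feeding is known to engage the salicylate and jasmonate pathways of rice, pathogenesis-related (PR) proteins, protease inhibitors and the callose that seals sieve tubes. Receptor kinases at the cell surface and nucleotide-binding (NB-ARC) proteins inside the cell are the sensors of such attacks. Genes of growth and photosynthesis are often lowered in attacked plants.

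The 6 libraries held between 13613563 and 17492144 counts, and 24470 genes passed the filter on low counts. A gene was called a differentially expressed gene (DEG) at a change of more than 2-fold with an adjusted p below 0.05 (edgeR, quasi-likelihood, p adjusted over all tested genes by Benjamini-Hochberg). Levels are given as CPM, read counts scaled to library size, which compare libraries for 1 gene and not 1 gene with another. The library B14_0-3 stood apart from its group. Its rank correlation with B14_0-1 and B14_0-2 over the tested genes was 0.934 and 0.940, against 0.995 between those libraries and 0.983 to 0.994 among the B14_late libraries. The counts of DEGs are therefore given with all 6 libraries and again without B14_0-3. B14_late-1 lay on the side of B14_0-3 on principal component 2, at 31.9, while B14_late-2 and B14_late-3 lay at -1.90 and -0.38.

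**Figure D1:**
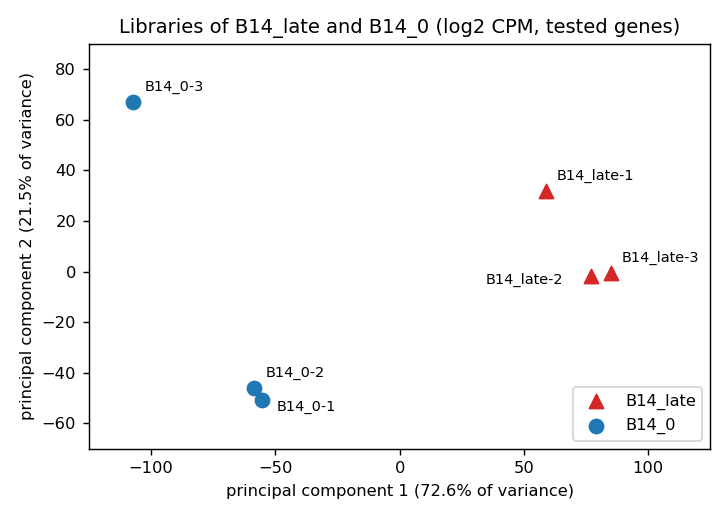
Principal components of log2 CPM over the tested genes for the 6 libraries (triangles, B14_late; circles, B14_0). The axes give component scores, with 72.6% of the variance on component 1 and 21.5% on component 2. B14_late sits between 58.9 and 85.1 and B14_0 between -107 and -55.4 on component 1, and B14_0-3 sits at 67.2 on component 2, above B14_0-1 at -50.9 and B14_0-2 at -45.9.

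With all 6 libraries, 6267 of 24470 genes were DEGs in B14_late/B14_0 (25.6%). Of these, 3087 were up-regulated (12.6% of the tested genes) and 3180 were down-regulated (13.0%). Without B14_0-3, 3415 genes were up-regulated (13.6% of 25102 tested) and 3205 were down-regulated (12.8%). A total of 5391 genes were DEGs in both fits, and all of them changed in the same direction in both. A further 876 genes were DEGs only with all 6 libraries and 1229 only without B14_0-3. The up-regulated genes reached further than the down-regulated ones: 351 genes were more than 8-fold higher and 99 more than 8-fold lower, and 155 and 12 genes passed 16-fold. Without B14_0-3, 391 and 81 of the same tested genes passed 8-fold, and 168 and 9 passed 16-fold. The median log2 fold change over all tested genes was 0.05, and 13751 of the 24470 genes had groups that did not overlap in the 6 libraries.

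Gene names and functions were available for 1591 loci, most of them on chromosome 1, and 813 of these had an informative symbol or description. From that annotation 245 loci were placed in 22 groups, and 201 of them passed the filter. With all 6 libraries 59 of the 201 were up-regulated and 74 down-regulated, 54 and 65 of them also without B14_0-3. Many of these loci were annotated because the study had listed them as changed in these samples, so the counts within groups are a description and not independent evidence of a direction. The remaining 44 grouped loci had too few counts to be tested. Of the 813 informative loci, 684 were tested. With all 6 libraries 180 of these were up-regulated and 232 down-regulated, and 168 and 221 without B14_0-3. The library groups did not overlap for 519 of the 684. Counts within groups are to be read beside these, since annotated genes were called more often than all tested genes. Locus identifiers of the form Os01g give the chromosome in the digits after "Os", on the IRGSP-1.0 build.

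**Figure D2:**
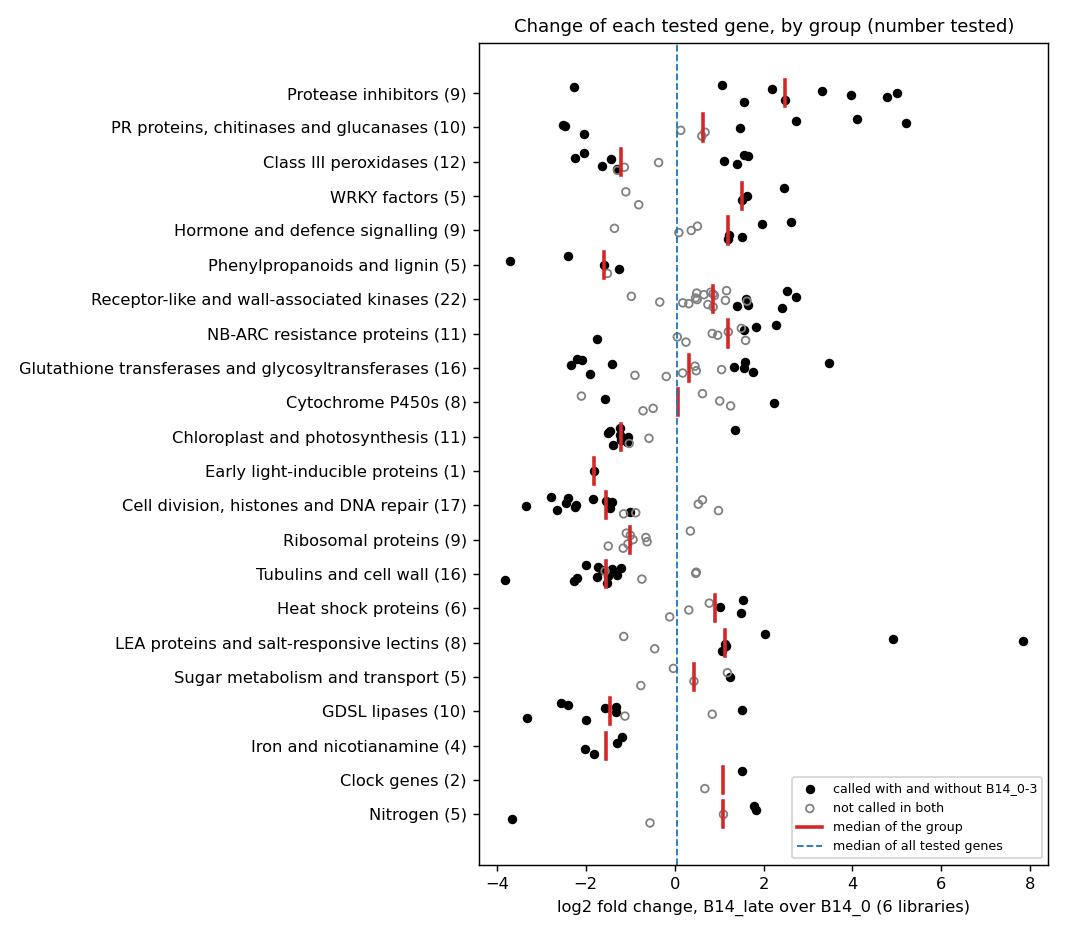
Log2 fold change of B14_late over B14_0 with 6 libraries (horizontal axis) for the 201 tested genes in 22 groups (rows, with the number tested). Filled points were DEGs with and without B14_0-3, open points were not, red bars are group medians and the dashed line is the median of all tested genes at 0.05. Protease inhibitors lie furthest to the right, with a median of 2.48. On the left are early light-inducible (1 tested gene), phenylpropanoid, iron and nicotianamine, tubulin and cell wall, and cell division genes. Their medians are -1.81, -1.58, -1.555, -1.54 and -1.54. The rightmost point is Os01g0348800, whose fitted value is no bound because it had 0 reads in B14_0.

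Protease inhibitors held the highest group median. Of 9 members, 8 were up-regulated and 1 was down-regulated, with the same counts without B14_0-3, and the median log2 fold change was 2.48 (2.92 without B14_0-3). Most are Bowman-Birk inhibitors, small wound-inducible proteins that block trypsin-like digestive proteases. RBBI3-3 (Os01g0124401) had 147, 135 and 161 CPM in B14_late and 4.03, 3.04 and 7.18 CPM in B14_0. Its level was 32.1-fold higher in B14_late (log2 fold change 5.004 ± 0.33 (SE), adjusted p = 0.00013). RBBI3-2 (Os01g0124100) had 45.1, 38.6 and 43.3 CPM in B14_late and 2.13, 0.776 and 1.82 CPM in B14_0 (log2 fold change 4.78 ± 0.34 (SE), adjusted p = 0.00016). No B14_0 library of either gene came near a B14_late library. RBBI3-1 (Os01g0124200) had 484, 415 and 478 CPM in B14_late and 21.9, 27.7 and 40.7 CPM in B14_0 (log2 fold change 3.97 ± 0.27 (SE), adjusted p = 0.00014). RBBI2-3 (Os01g0124650) held the most reads of the group, at 1622, 1384 and 1472 CPM in B14_late and 129.9, 122 and 208 CPM in B14_0 (log2 fold change 3.32 ± 0.26 (SE), adjusted p = 0.00023). In each of these genes but RBBI3-2, B14_0-3 was the highest of the B14_0 libraries, and 8 of the 9 members were higher in B14_0-3 than in both other B14_0 libraries, against 47.2% of all tested genes. The exception to the direction was Os01g0131900, similar to the wound-induced inhibitor WIP1, with 0.151, 0.177 and 0.121 CPM in B14_late and 0.672, 0.711 and 0.947 CPM in B14_0 (log2 fold change -2.26 ± 0.45 (SE), adjusted p = 0.0066). That gene was under 1 CPM in every library. The other member similar to WIP1, IAI2 (Os01g0132000), rose, with 515, 445 and 472 CPM in B14_late and 203, 207 and 292 CPM in B14_0 (log2 fold change 1.06, adjusted p = 0.0046). The Bowman-Birk genes lie side by side on chromosome 1 and are alike in sequence, so reads may have been shared between them and the level of each copy is uncertain.

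PR proteins, chitinases and glucanases were divided. Of 10 tested members of 12, 4 were up-regulated and 3 down-regulated in both fits. Among the 684 tested annotated genes, 158 were up-regulated and 203 down-regulated in both fits. OsPR2 (Os05g0375400), a beta-glucanase of the family that degrades callose and fungal walls, had 904, 783 and 797 CPM in B14_late and 23.5, 21.7 and 23.7 CPM in B14_0. It was 37.1-fold higher (log2 fold change 5.21 ± 0.16 (SE), adjusted p = 1.5e-05), with 108, 127 and 99.5 CPM in the libraries of B14_early, the stage after 3, 6 and 12 h of feeding. The spread within each group was small beside this gap. Os11g0701500, similar to a class III chitinase, which cuts chitin, had 5.73, 6.30 and 4.89 CPM in B14_late and 0.224, 0.388 and 0.395 CPM in B14_0 (log2 fold change 4.11 ± 0.32 (SE), adjusted p = 0.00022). Its groups were far apart although its level was low. Cht9, another chitinase, had 3.01, 7.12 and 3.74 CPM in B14_late and 0.672, 0.776 and 0.710 CPM in B14_0 (log2 fold change 2.73, adjusted p = 0.0024). OsPR1#012 had 58.3, 44.8 and 50.1 CPM in B14_late and 20.6, 14.5 and 21.9 CPM in B14_0 (log2 fold change 1.46, adjusted p = 0.0016). PR1 proteins are secreted markers of the salicylate response, and another of them went the other way. The PR1 gene OsPR1#021 (Os02g0786500) had 2.41, 1.24 and 0.905 CPM in B14_late and 7.67, 7.37 and 10.7 CPM in B14_0 (log2 fold change -2.48 ± 0.38 (SE), adjusted p = 0.0025). The family 17 glycoside hydrolase Os03g0221500 had 4.60, 3.36 and 2.78 CPM in B14_late and 17.1, 20.04 and 25.3 CPM in B14_0 (log2 fold change -2.51 ± 0.26 (SE), adjusted p = 0.00055). The glucanase-like Os01g0243700 fell as well, by 2.04 on the log2 scale. Members of the glucanase family therefore moved both ways, and OsPR5 did not pass the test (15.0, 13.5 and 10.3 CPM in B14_late and 6.72, 8.47 and 10.9 CPM in B14_0, adjusted p = 0.087).

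**Figure D3:**
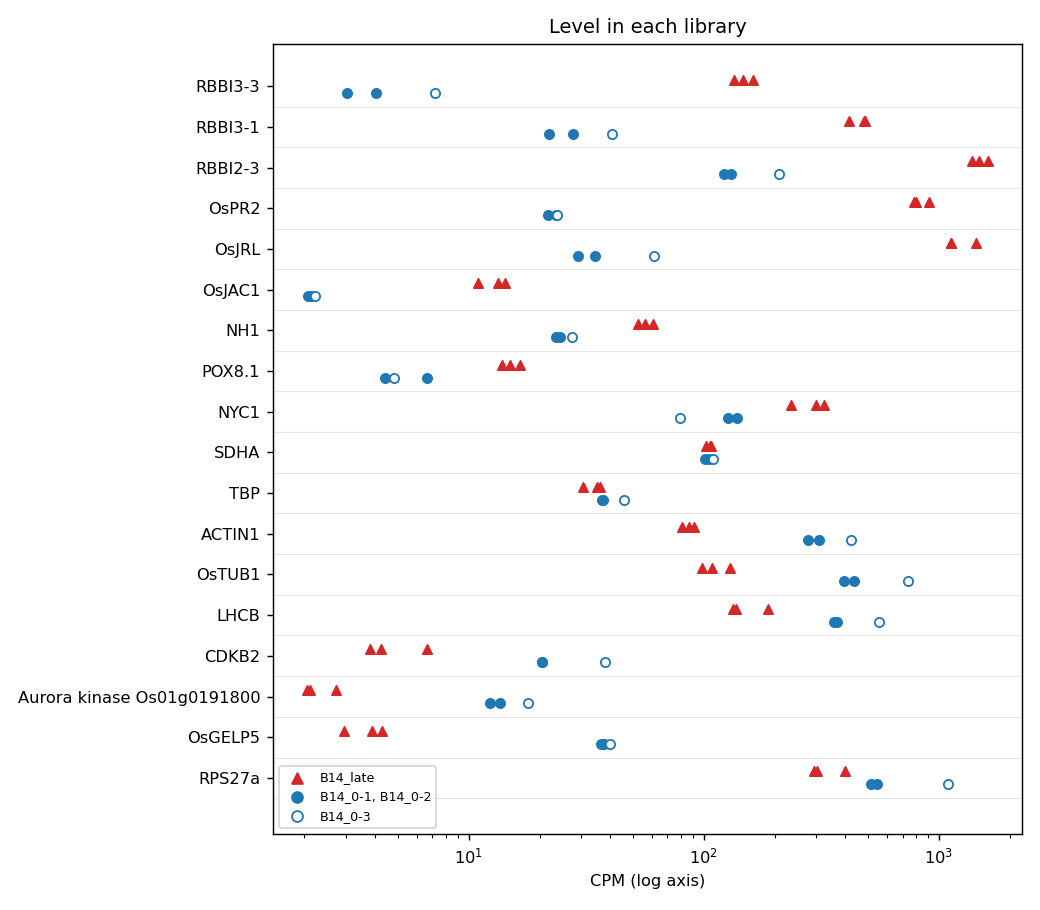
CPM in each library on a log axis for 18 genes (triangles, B14_late; filled circles, B14_0-1 and B14_0-2; open circles, B14_0-3). The groups overlap for SDHA alone and nearly meet for TBP, and B14_0-3 is the B14_0 library furthest from B14_late for OsTUB1, LHCB, RPS27a, CDKB2 and NYC1 and the nearest for RBBI3-3, RBBI3-1, RBBI2-3 and OsJRL.

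Class III peroxidases, secreted haem enzymes that act on hydrogen peroxide and the cell wall, were also divided. Of 12 members, 4 were up-regulated and 7 down-regulated with all 6 libraries, and 4 and 5 without B14_0-3. The 684 tested annotated genes held 180 up-regulated and 232 down-regulated ones with all 6 libraries. OsPOX8.1 (Os07g0677100) had 16.6, 13.8 and 14.9 CPM in B14_late and 4.42, 6.66 and 4.81 CPM in B14_0. It was 2.93-fold higher in B14_late (log2 fold change 1.55 ± 0.21 (SE), adjusted p = 0.0015), and the groups did not overlap. B14_early had 10.9, 9.97 and 11.2 CPM. Of the other up-regulated members, prx15 reached 104, 86.5 and 92.8 CPM in B14_late and 37.4, 38.5 and 58.3 CPM in B14_0 (log2 fold change 1.11). Other members fell. prx40 (Os03g0339400) had 2.19, 1.94 and 1.75 CPM in B14_late and 6.32, 7.63 and 14.8 CPM in B14_0 (log2 fold change -2.25 ± 0.38 (SE), adjusted p = 0.0035). Its B14_0-3 value was far above the other B14_0 libraries, and its log2 fold change was -1.84 without that library. OsPOD (Os01g0294700) had 43.3, 34.7 and 33.9 CPM in B14_late and 113, 119 and 125.5 CPM in B14_0, with little spread (log2 fold change -1.64 ± 0.14 (SE), adjusted p = 0.00029). prx17 (Os01g0543100) had 3.84, 3.18 and 3.38 CPM in B14_late and 9.40, 8.53 and 10.9 CPM in B14_0 (log2 fold change -1.43 ± 0.21 (SE), adjusted p = 0.0020). The down-regulated count of 7 lost prx2 and prx4 without B14_0-3, and the up-regulated count was 2 without B14_0-1 or without B14_0-2.

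Among signalling genes, 5 of 9 tested members of the hormone and defence group were up-regulated in both fits and none was down-regulated. OsJAC1 (Os12g0247700), annotated as a jasmonate-induced protein, had 14.3, 11.0 and 13.3 CPM in B14_late and 2.07, 2.13 and 2.21 CPM in B14_0. It was 6.16-fold higher (log2 fold change 2.62 ± 0.20 (SE), adjusted p = 0.00021), and it had 23.2, 25.2 and 16.7 CPM in B14_early. OsJAR2 (Os01g0221100), of the GH3 family whose JAR members conjugate jasmonate to amino acids, had 49.8, 51.1 and 48.8 CPM in B14_late and 22.27, 22.8 and 9.16 CPM in B14_0 (log2 fold change 1.51 ± 0.31 (SE), adjusted p = 0.0077). B14_0-3 was the lowest library here, and the log2 fold change was 1.14 without it. OsOPR10 (Os01g0369900) belongs to the 12-oxo-phytodienoate reductases, a family that includes jasmonate-forming enzymes, and had 14.2, 13.7 and 15.99 CPM in B14_late and 5.99, 6.79 and 6.63 CPM in B14_0 (log2 fold change 1.22 ± 0.17 (SE), adjusted p = 0.0017). NH1 (Os01g0194300), the rice counterpart of the Arabidopsis salicylate co-activator NPR1, had 60.6, 52.5 and 56.0 CPM in B14_late and 23.4, 24.4 and 27.5 CPM in B14_0 (log2 fold change 1.21 ± 0.13 (SE), adjusted p = 0.00070). In all of these the B14_late libraries lay above every B14_0 library. The lipoxygenase OsLOX11 had 89.2, 79.8 and 79.0 CPM in B14_late and 59.0, 62.3 and 57.2 CPM in B14_0, which was under 2-fold (log2 fold change 0.51, adjusted p = 0.010). OsPROPEP3, precursor of a danger peptide, had 0.603, 0.294 and 1.33 CPM in B14_late and 1.68, 1.36 and 2.92 CPM in B14_0 and did not pass the test (adjusted p = 0.093), although 1 member of the group was down-regulated without B14_late-3.

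WRKY factors, transcription factors that bind W-box promoters of defence genes, gave 3 up-regulated genes of 5 in both fits. OsWRKY10 (Os01g0186000) had 5.58, 7.01 and 5.85 CPM in B14_late and 1.06, 1.03 and 4.18 CPM in B14_0, so that B14_0-3 lay near B14_late and apart from its own group. Its log2 fold change was 1.62 ± 0.55 (SE) with all 6 libraries, just past the threshold, and 2.54 without B14_0-3 (adjusted p = 2.2e-05). The call was lost without any of the other 5 libraries. OsWRKY107 had 2.49, 2.83 and 3.38 CPM in B14_late and 0.727, 1.55 and 0.868 CPM in B14_0 (log2 fold change 1.51, adjusted p = 0.013), and OsWRKY102 had 2.56, 2.59 and 2.41 CPM in B14_late and 4.59, 5.04 and 4.03 CPM in B14_0, under 2-fold in the other direction. The count of 3 was 1 without B14_late-3.

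Genes of phenylpropanoid metabolism, the route to lignin and flavonoids, were lower. Of 5 tested members, 4 were down-regulated with all 6 libraries and 5 without B14_0-3, and none was up-regulated. OsCAD3 (Os10g0430200), of the alcohol dehydrogenases that act last in monolignol synthesis, had 16.6, 11.8 and 14.4 CPM in B14_late and 33.5, 35.0 and 62.2 CPM in B14_0 (log2 fold change -1.58 ± 0.28 (SE), adjusted p = 0.0046). 4CL1 (Os08g0245200), a 4-coumarate:coenzyme A ligase at the entry to the pathway, had 7.16, 4.12 and 4.77 CPM in B14_late and 14.7, 14.2 and 9.94 CPM in B14_0 (log2 fold change -1.24 ± 0.26 (SE), adjusted p = 0.0085). OsPKS27, similar to bibenzyl synthase, had 0.528, 0.353 and 0.181 CPM in B14_late and 4.31, 4.20 and 5.68 CPM in B14_0 (log2 fold change -3.70, adjusted p = 0.00057). The groups did not overlap in any of the 5, which was also so for 519 of the 684 tested annotated genes.

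Receptor-like and wall-associated kinases sense wall fragments and other cues at the cell surface. Of 22 tested members of 29, 7 were up-regulated and none down-regulated with all 6 libraries, and 6 and 1 without B14_0-3. Over the 684 tested annotated genes, 180 were up-regulated and 232 down-regulated with all 6 libraries. OsRLCK25 (Os01g0152800) had 5.73, 7.60 and 8.75 CPM in B14_late and 1.51, 1.23 and 0.631 CPM in B14_0 (log2 fold change 2.73 ± 0.35 (SE), adjusted p = 0.0012). OsRLCK5 (Os01g0114100) had 26.8, 37.9 and 38.2 CPM in B14_late and 13.3, 11.5 and 9.00 CPM in B14_0 (log2 fold change 1.65 ± 0.22 (SE), adjusted p = 0.0014). The wall-associated kinase OsWAK2 (Os01g0136800) had 9.72, 12.0 and 11.3 CPM in B14_late and 4.81, 3.81 and 2.45 CPM in B14_0 (log2 fold change 1.61 ± 0.27 (SE), adjusted p = 0.0034). In each of these B14_0-3 was the lowest B14_0 library. The receptor-like kinase Os01g0113700 had 4.67, 5.36 and 5.25 CPM in B14_late and 2.29, 2.59 and 1.03 CPM in B14_0 (log2 fold change 1.40 ± 0.34 (SE), adjusted p = 0.014), a call that was lost without B14_late-2 or B14_late-3. WAK112 had 56.5, 119 and 108 CPM in B14_late and 62.7, 50.5 and 18.1 CPM in B14_0, with B14_late-1 inside the range of B14_0 and no call (adjusted p = 0.079). The summed level of the 22 genes was 255, 369 and 370 CPM in B14_late and 270, 253 and 126 CPM in B14_0. Thus B14_late-1 and B14_0-3 were each the lowest of their group, and 18 of the 22 genes were lower in B14_0-3 than in both other B14_0 libraries, against 43.8% of all tested genes. The up-regulated count was 4 without B14_late-3, and 1 gene, OsSERL5, was down-regulated without B14_0-3 and 1 gene without B14_late-1. Many of these kinases lie in tandem on chromosome 1, and reads may have been shared between close copies.

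NB-ARC proteins, the intracellular class to which BPH14 belongs, showed the same pattern between libraries. Of 11 tested members of 17, 3 were up-regulated and 1 down-regulated with all 6 libraries, and 4 and 1 without B14_0-3. Os11g0598300 had 12.1, 18.6 and 17.3 CPM in B14_late and 5.37, 5.62 and 2.84 CPM in B14_0 (log2 fold change 1.84 ± 0.30 (SE), adjusted p = 0.0033). Os11g0266500 had 16.4, 27.5 and 30.4 CPM in B14_late and 12.3, 10.7 and 2.92 CPM in B14_0 (log2 fold change 1.57 ± 0.49 (SE), adjusted p = 0.037). In both genes B14_late-1 was the lowest B14_late library and B14_0-3 the lowest B14_0 library, and the call of Os11g0266500 was lost without B14_0-2 or without any of the B14_late libraries. Os01g0269800 was the exception in direction, with 3.17, 1.59 and 1.39 CPM in B14_late and 7.11, 6.27 and 7.58 CPM in B14_0 (log2 fold change -1.75 ± 0.34 (SE), adjusted p = 0.0059). The blast resistance gene PIT had 3.09, 10.5 and 8.93 CPM in B14_late and 4.20, 2.97 and 0.474 CPM in B14_0 and did not pass the test (adjusted p = 0.10). The summed level of the 11 genes was 58.7, 102 and 104 CPM in B14_late and 53.8, 46.9 and 20.4 CPM in B14_0, and 9 of the 11 genes were lower in B14_0-3 than in both other B14_0 libraries. Only 1 gene was up-regulated without B14_late-2. What sets these 2 libraries apart was not tested.

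**Figure D4:**
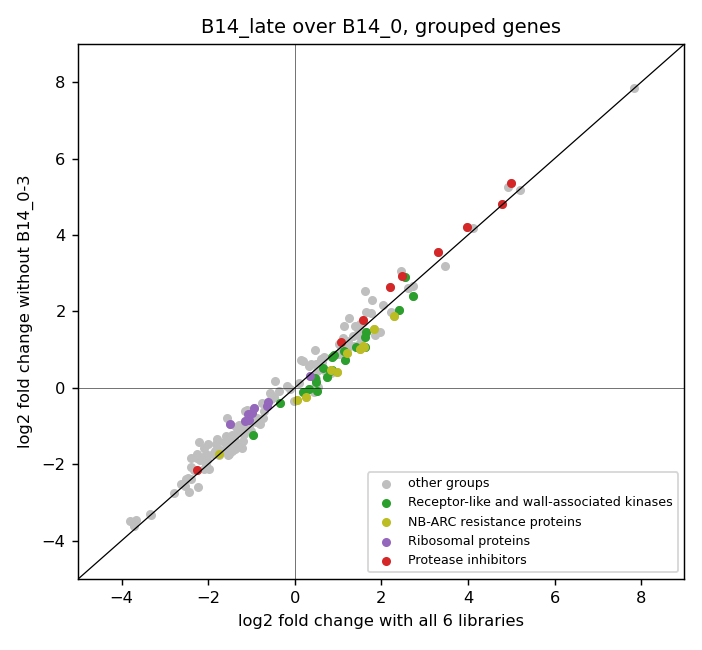
Log2 fold change of B14_late over B14_0 without B14_0-3 (vertical axis) against that with all 6 libraries (horizontal axis) for the 201 grouped genes. Points below the diagonal had a lower value without B14_0-3, among them most receptor-like kinase and NB-ARC genes, whose medians were 0.62 and 0.92 without that library and 0.86 and 1.21 with all 6, and most ribosomal protein genes lay above it, with medians of -0.66 and -0.995.

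Glutathione transferases and glycosyltransferases, which attach glutathione or sugars to toxins and secondary metabolites, were divided. Of 16 tested members of 18, 6 were up-regulated and 5 down-regulated, and 5 and 5 without B14_0-3. Both directions were common among the 684 tested annotated genes, with 180 up-regulated and 232 down-regulated with all 6 libraries. UGT703A1 (Os01g0638600) had 1.28, 0.942 and 1.39 CPM in B14_late and 5.32, 5.24 and 8.13 CPM in B14_0 (log2 fold change -2.33 ± 0.31 (SE), adjusted p = 0.0014). OsGSTF1 (Os01g0371200) had 20.4, 18.9 and 17.98 CPM in B14_late and 62.1, 64.7 and 91.9 CPM in B14_0 (log2 fold change -1.90 ± 0.19 (SE), adjusted p = 0.00052). OsUGT706J1 (Os05g0527600) had 3.69, 3.42 and 3.62 CPM in B14_late and 9.68, 11.4 and 25.7 CPM in B14_0 (log2 fold change -2.09 ± 0.40 (SE), adjusted p = 0.0061). In each the B14_late libraries were close together and B14_0-3 was the highest B14_0 library. The flavonoid glucosyltransferase Os06g0192100 had 8.14, 5.36 and 5.73 CPM in B14_late and 17.5, 16.7 and 55.8 CPM in B14_0, and its log2 fold change of -2.20 was -1.43 without B14_0-3. It was no DEG without B14_late-2 or without B14_late-3. OsGSTU7 rose, with 10.6, 10.0 and 11.0 CPM in B14_late and 3.13, 2.26 and 4.18 CPM in B14_0 (log2 fold change 1.76, adjusted p = 0.0023). The down-regulated count was 3 without B14_late-2 or without B14_late-3. Of 8 tested cytochrome P450 genes of 12, 2 were up-regulated and 1 down-regulated with all 6 libraries, and 2 and 2 without B14_0-3. Os01g0543600 had 33.8, 34.4 and 30.5 CPM in B14_late and 7.83, 8.60 and 5.21 CPM in B14_0 (log2 fold change 2.23 ± 0.20 (SE), adjusted p = 0.00036). The P450 counts were 1 up-regulated without B14_late-1 or B14_late-2, 2 down-regulated without B14_late-1, and 0 down-regulated without B14_late-2 or B14_late-3.

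Chloroplast genes were lower. Of 11 members, 9 were down-regulated and 1 up-regulated with all 6 libraries, and 8 and 1 without B14_0-3, with a median log2 fold change of -1.21. In bulk leaf sheath, fewer cells of a type and less RNA per cell cannot be told apart. LHCB (Os03g0592500), a light-harvesting chlorophyll a/b protein of photosystem II, had 188, 138 and 133 CPM in B14_late and 357, 367 and 557 CPM in B14_0 (log2 fold change -1.45 ± 0.24 (SE), adjusted p = 0.0032). The Tic32-like dehydrogenase Os01g0151700, of the chloroplast protein import apparatus, had 40.02, 32.4 and 31.7 CPM in B14_late and 92.3, 92.6 and 117 CPM in B14_0 (log2 fold change -1.50 ± 0.17 (SE), adjusted p = 0.00068). Os01g0144100, a thylakoid lumen protein, had 16.5, 14.0 and 12.8 CPM in B14_late and 43.6, 44.2 and 28.6 CPM in B14_0 (log2 fold change -1.38 ± 0.20 (SE), adjusted p = 0.0019). These levels were lower in every B14_late library than in any B14_0 library. OsCRD1, a subunit of a cyclase on the tetrapyrrole route to chlorophyll, had 65.2, 53.0 and 47.1 CPM in B14_late and 107, 114 and 133 CPM in B14_0 (log2 fold change -1.07). PPX, a protoporphyrinogen oxidase of the same route, had 52.5, 40.3 and 37.6 CPM in B14_late and 115, 113 and 81.2 CPM in B14_0 (log2 fold change -1.21). The triose phosphate translocator OsTPT1, which exports fixed carbon to the cytosol, had 383, 338 and 309 CPM in B14_late and 773, 784 and 906 CPM in B14_0 (log2 fold change -1.22, adjusted p = 0.0013). The gene that rose was NYC1 (Os01g0227100), a chlorophyll b reductase that starts chlorophyll b breakdown. It had 235, 299 and 324 CPM in B14_late and 139, 127 and 78.9 CPM in B14_0 (log2 fold change 1.36 ± 0.24 (SE), adjusted p = 0.0039). The early light-inducible protein Os01g0246400, the 1 member of 3 with enough counts, had 1.66, 1.00 and 0.603 CPM in B14_late and 2.80, 3.10 and 5.76 CPM in B14_0 (log2 fold change -1.81, adjusted p = 0.017), and it was a DEG without B14_0-3 too. The group count of 1 was 2 without B14_0-1 or B14_late-1 and 0 without B14_late-2 or B14_late-3.

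Cell division, histone and DNA repair genes were lower. Of 17 tested members of 21, 13 were down-regulated and none up-regulated with all 6 libraries, and 12 and none without B14_0-3. The median log2 fold change was -1.54, and -1.66 without that library. The Aurora kinase Os01g0191800, a mitotic kinase, had 2.71, 2.12 and 2.05 CPM in B14_late and 12.4, 13.6 and 17.92 CPM in B14_0 (log2 fold change -2.64 ± 0.24 (SE), adjusted p = 0.00037). CDKB2 (Os08g0512600), a plant-specific cyclin-dependent kinase of the G2 to M transition, had 6.63, 4.24 and 3.80 CPM in B14_late and 20.4, 20.4 and 38.1 CPM in B14_0 (log2 fold change -2.40 ± 0.35 (SE), adjusted p = 0.0019). Every B14_late library lay well below every B14_0 library in both. OsACK1 (Os01g0513900), a kinesin, had 2.34, 2.83 and 2.05 CPM in B14_late and 15.7, 16.2 and 8.76 CPM in B14_0 (log2 fold change -2.44 ± 0.29 (SE), adjusted p = 0.00094). A further kinesin, Os01g0260100, had 2.19, 3.18 and 3.68 CPM in B14_late and 21.4, 15.5 and 7.58 CPM in B14_0 (log2 fold change -2.24 ± 0.40 (SE), adjusted p = 0.0044). For the kinesins B14_0-3 was the lowest B14_0 library, whereas for CDKB2 and the H2A gene Os01g0502700 it was the highest. OsMCM4, a subunit of the replicative helicase, had 6.41, 5.42 and 5.49 CPM in B14_late and 19.6, 19.1 and 12.9 CPM in B14_0 (log2 fold change -1.54, adjusted p = 0.0015). BIP104, similar to the chromatin factor SSRP1, had 220.4, 250.4 and 266 CPM in B14_late and 135, 129 and 119.9 CPM in B14_0, just under 2-fold higher (adjusted p = 0.0016), and 1 gene was up-regulated without B14_0-1 or without B14_late-1. The repair gene RAD51C had 12.1, 15.96 and 13.8 CPM in B14_late and 9.90, 9.89 and 8.13 CPM in B14_0 and was under 2-fold. Histone genes have near-identical copies, so the level of each copy is uncertain.

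Tubulins and cell wall genes were lower as well, with 12 of 16 tested members of 20 down-regulated and none up-regulated in either fit. The fasciclin-like arabinogalactan protein OsFLA8 (Os01g0159200) had 34.8, 27.3 and 21.4 CPM in B14_late and 83.8, 100.3 and 222 CPM in B14_0 (log2 fold change -2.25 ± 0.40 (SE), adjusted p = 0.0045). OsTUB1 (Os01g0282800), a beta-tubulin, had 129.7, 108 and 98.5 CPM in B14_late and 394, 434 and 741 CPM in B14_0 (log2 fold change -2.19 ± 0.28 (SE), adjusted p = 0.0012). The groups were apart in both. OsFLA4 (Os08g0490600), of the same family as OsFLA8, had 21.5, 12.6 and 11.0 CPM in B14_late and 38.3, 43.6 and 102 CPM in B14_0 (log2 fold change -2.004 ± 0.44 (SE), adjusted p = 0.010). OsTUB2 (Os03g0105600), another beta-tubulin, had 23.8, 24.0 and 22.8 CPM in B14_late and 63.0, 61.6 and 101 CPM in B14_0 (log2 fold change -1.64 ± 0.23 (SE), adjusted p = 0.0016). B14_0-3 was the highest library for all 4 genes, and 13 of the 16 genes were higher in it than in both other B14_0 libraries, against 47.2% of all tested genes. The call of OsFLA4 was lost without B14_late-3. The callose synthase OsGSL4 had 8.89, 15.7 and 11.3 CPM in B14_late and 10.5, 9.70 and 6.24 CPM in B14_0 and did not pass the test (adjusted p = 0.21). OsGSL9, similar to another callose synthase, had 0.904, 1.88 and 3.02 CPM in B14_late and 2.01, 1.87 and 0.395 CPM in B14_0 and did not pass it either (adjusted p = 0.56). Tubulins are a conserved family, and reads may have been shared between members.

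Ribosomal protein genes depended on B14_0-3. Of 9 tested members of 11, 4 were down-regulated with all 6 libraries and 0 of 9 without B14_0-3. The median log2 fold change was -0.995 with it and -0.66 without it. RPS27a (Os01g0328400) had 399, 301 and 293 CPM in B14_late and 515, 543 and 1095 CPM in B14_0. Its log2 fold change was -1.09 ± 0.33 (SE, adjusted p = 0.032) with all 6 libraries and -0.68 (adjusted p = 0.0047) without B14_0-3, where it was under 2-fold. The summed level of the 9 genes was 1341, 1055 and 1051 CPM in B14_late and 1610.0, 1662 and 2998 CPM in B14_0. B14_late lay below B14_0 for 8 of the 9 genes and RPS4 was the exception, with 363, 283 and 295 CPM in B14_late and 248, 256 and 252 CPM in B14_0. Groups that did not overlap, in either direction, were common: 519 of the 684 tested annotated genes and 13751 of all 24470 tested genes had them. RPS27a was no DEG without B14_late-2 or B14_late-3 either, and the count was 1 with either of them left out.

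Of 8 late embryogenesis abundant (LEA) proteins and salt-responsive lectins, 6 were up-regulated in both fits and none was down-regulated. OsJRL (Os01g0348900), a jacalin-related mannose-binding lectin, had 1122, 1128 and 1443 CPM in B14_late and 34.5, 29.3 and 61.1 CPM in B14_0. It was 30.3-fold higher (log2 fold change 4.92 ± 0.35 (SE), adjusted p = 0.00017). In B14_early the same gene had 44.7, 52.2 and 47.9 CPM, above B14_0-1 and B14_0-2 and below B14_0-3. Its neighbour Os01g0348800, similar to a salt-induced protein, had 2.34, 1.18 and 1.93 CPM in B14_late, 83 reads in all, and 0 reads in B14_0. Against a floor of 3 reads over the B14_0 group, it was at least 27.2-fold higher. LEA proteins, which protect cells from water loss, changed less. Os01g0307686 had 15.1, 13.9 and 12.3 CPM in B14_late and 6.16, 6.59 and 6.31 CPM in B14_0 (log2 fold change 1.15 ± 0.17 (SE), adjusted p = 0.0020), and Os01g0109000 had 28.0, 23.2 and 26.8 CPM in B14_late and 12.1, 10.9 and 15.1 CPM in B14_0 (log2 fold change 1.07 ± 0.18 (SE), adjusted p = 0.0038). OsLEA9 (Os01g0314800) had 199, 154 and 158 CPM in B14_late and 55.5, 54.2 and 128 CPM in B14_0 (log2 fold change 1.13 ± 0.35 (SE), adjusted p = 0.037), with B14_0-3 more than 2-fold above the other B14_0 libraries. The call of OsLEA9 was lost without any library but B14_0-3, that of Os01g0109000 without B14_0-2 or B14_late-1, and the group count was 3 without B14_late-1. Of 6 tested heat shock genes of 8, 3 were up-regulated and none down-regulated in both fits. The heat shock factor OsHsfA7 (Os01g0571300) had 23.3, 18.1 and 19.1 CPM in B14_late and 7.78, 6.92 and 6.79 CPM in B14_0 (log2 fold change 1.53 ± 0.17 (SE), adjusted p = 0.00069). The DnaJ co-chaperone OsDjB1 (Os01g0239100) had 38.3, 34.9 and 33.8 CPM in B14_late and 16.1, 16.1 and 21.9 CPM in B14_0 (log2 fold change 1.02 ± 0.18 (SE), adjusted p = 0.0040), close to the 2-fold threshold. It fell under that threshold without B14_0-1, B14_0-2 or B14_late-1, and the heat shock count was 1 without B14_late-1. The cytosolic small heat shock protein Os01g0135900 held the most reads of that group, with 490.5, 338 and 343 CPM in B14_late and 398, 393 and 505 CPM in B14_0, and did not pass the test (adjusted p = 0.68).

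GDSL lipases, hydrolases of lipids and cutin precursors, were mostly lower. Of 10 tested members of 11, 8 were down-regulated and 1 up-regulated with all 6 libraries, and 7 and 1 without B14_0-3. OsGELP5 (Os01g0215500) had 4.30, 3.89 and 2.96 CPM in B14_late and 36.4, 37.6 and 39.7 CPM in B14_0, with all 3 B14_0 libraries close together. It fell by 3.31 on the log2 scale (adjusted p = 8.8e-05). These genes are numbered members of the rice GDSL family. OsGELP2 (Os01g0214600) had 36.3, 30.3 and 27.1 CPM in B14_late and 134, 137 and 112 CPM in B14_0 (log2 fold change -1.99 ± 0.15 (SE), adjusted p = 0.00019). OsGELP14 (Os01g0329900) had 42.6, 33.9 and 27.9 CPM in B14_late and 93.5, 103 and 122 CPM in B14_0 (log2 fold change -1.57 ± 0.19 (SE), adjusted p = 0.0010). The member that rose was OsGELP13 (Os01g0223500), with 11.6, 10.5 and 11.0 CPM in B14_late and 3.53, 3.36 and 5.05 CPM in B14_0 (log2 fold change 1.52 ± 0.23 (SE), adjusted p = 0.0023).

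Nicotianamine synthases make a chelator that carries iron and zinc through the plant. All 4 tested members of the iron and nicotianamine group of 5 were down-regulated in both fits. OsNAS1 (Os03g0307300) had 3.24, 2.41 and 1.81 CPM in B14_late and 9.29, 8.86 and 12.8 CPM in B14_0 (log2 fold change -2.02 ± 0.29 (SE), adjusted p = 0.0019). NAS2 (Os03g0307200) had 4.15, 3.71 and 2.29 CPM in B14_late and 8.95, 7.89 and 19.4 CPM in B14_0 (log2 fold change -1.81 ± 0.42 (SE), adjusted p = 0.013), with B14_0-3 far above the other B14_0 libraries and no call without B14_late-3. OsNAS3 (Os07g0689600) had 5.12, 5.95 and 5.49 CPM in B14_late and 10.1, 13.4 and 18.6 CPM in B14_0 (log2 fold change -1.30 ± 0.27 (SE), adjusted p = 0.0077). The vacuolar iron transporter OsVIT2 (Os09g0396900) had 10.5, 9.48 and 8.63 CPM in B14_late and 21.0, 23.1 and 22.2 CPM in B14_0 (log2 fold change -1.17 ± 0.15 (SE), adjusted p = 0.0013). OsNAS1 and NAS2 are neighbours of near-identical sequence, so their counts may be split between them.

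Of 5 tested sugar genes of 9, 2 were up-regulated, and 1 without B14_0-3, B14_late-2 or B14_late-3. The neutral invertase OsNIN2 (Os01g0332100), which splits sucrose, had 85.3, 79.5 and 89.97 CPM in B14_late and 39.5, 41.7 and 30.4 CPM in B14_0 (log2 fold change 1.23 ± 0.15 (SE), adjusted p = 0.00091). Of 5 nitrogen genes, 3 were up-regulated and 1 down-regulated, and 2 and 1 without B14_0-3. The nitrate transporter NRT2.4 had 0.151, 0.0589 and 0.0603 CPM in B14_late and 1.18, 0.840 and 1.66 CPM in B14_0 (log2 fold change -3.66, adjusted p = 0.0024). The up-regulated nitrogen genes were under 5 CPM, and their count was 1 without B14_0-1 or B14_late-2 and 0 without B14_late-1 or B14_late-3. Of the clock genes, 1 of 2 was up-regulated in both fits. OsELF3.2 (Os01g0566100), a homologue of the Arabidopsis evening-complex gene ELF3, had 74.6, 91.6 and 93.5 CPM in B14_late and 37.3, 38.5 and 18.2 CPM in B14_0 (log2 fold change 1.51 ± 0.28 (SE), adjusted p = 0.0048). GI, the rice GIGANTEA, had 1174, 1426 and 1447 CPM in B14_late and 968, 966 and 676 CPM in B14_0 and was under 2-fold.

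The annotated genes outside the groups were led by increases. OsEnS-58 (Os03g0826900) had 2776, 3399 and 3546 reads in B14_late and 2, 0 and 0 reads in B14_0. The ratio of the summed levels was 4776, with an exact 95% interval of 1322 to 39440 that covers counting error only. OsEnS-40 (Os02g0586900) had 124, 107 and 122 CPM in B14_late and 0.616, 0.517 and 0.395 CPM in B14_0 (log2 fold change 7.85 ± 0.20 (SE), adjusted p = 8.4e-06). Glua1 (Os01g0762500), a glutelin of the seed storage proteins, had 15.4, 21.0 and 21.0 CPM in B14_late and 0.224, 0.129 and 0.316 CPM in B14_0 (log2 fold change 6.45 ± 0.34 (SE), adjusted p = 7.6e-05). It was the only seed marker of the planned list with an annotation, and the other seed markers of that list were not examined. Whether further genes named here are seed genes was not tested. OsGA2ox8 (Os05g0560900), of the dioxygenases that inactivate gibberellins, had 18.01, 16.5 and 15.9 CPM in B14_late and 0.224, 0.323 and 0.789 CPM in B14_0 (log2 fold change 5.32 ± 0.40 (SE), adjusted p = 0.00019). Its log2 fold change was 5.91 without B14_0-3, the highest of the B14_0 libraries. Os01g0266800, with cystinosin repeats, had 201, 294 and 301 CPM in B14_late and 17.7, 15.0 and 10.9 CPM in B14_0 (log2 fold change 4.23 ± 0.26 (SE), adjusted p = 0.00011), and the LOB-domain factor LBD11-1 (Os11g0106900) had 22.31, 17.3 and 14.7 CPM in B14_late and 0.672, 1.36 and 1.105 CPM in B14_0 (log2 fold change 4.16 ± 0.31 (SE), adjusted p = 0.00019). These genes were picked among the largest annotated increases, and B14_late libraries lay far above all B14_0 libraries in each.

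Among decreases, Os01g0878900, similar to a DOPA dioxygenase, had 2.64, 1.94 and 2.35 CPM in B14_late and 18.7, 19.1 and 31.3 CPM in B14_0 (log2 fold change -3.28 ± 0.29 (SE), adjusted p = 0.00031). Os01g0516200, similar to a stress-responsive protein, had 8.82, 9.07 and 6.88 CPM in B14_late and 66.9, 64.9 and 79.9 CPM in B14_0 (log2 fold change -3.06 ± 0.18 (SE), adjusted p = 1.0e-04). The small GTPase OsARFA1e (Os01g0265100), of the ADP-ribosylation factors that drive vesicle budding, had 17.6, 15.9 and 15.1 CPM in B14_late and 118, 117 and 132 CPM in B14_0 (log2 fold change -2.88 ± 0.14 (SE), adjusted p = 5.9e-05). The libraries of each group were close together for OsARFA1e. Os01g0896400 had 2.64, 3.12 and 2.05 CPM in B14_late and 12.9, 13.1 and 29.3 CPM in B14_0 (log2 fold change -2.78 ± 0.40 (SE), adjusted p = 0.0020). OsUBC27 (Os01g0273100), a ubiquitin-conjugating enzyme, had 3.24, 1.83 and 2.05 CPM in B14_late and 10.9, 10.5 and 22.7 CPM in B14_0 (log2 fold change -2.61 ± 0.41 (SE), adjusted p = 0.0026). For both, B14_0-3 was at more than 2 times the level of each other B14_0 library. The family 3 glycoside hydrolase Os01g0296700 had 7.46, 5.53 and 5.55 CPM in B14_late and 39.5, 42.5 and 45.6 CPM in B14_0 (log2 fold change -2.75 ± 0.18 (SE), adjusted p = 0.00012). OsAGP12 (Os01g0110200), a conserved protein with a symbol of the arabinogalactan family, had 6.93, 9.30 and 7.00 CPM in B14_late and 38.2, 41.1 and 65.4 CPM in B14_0 (log2 fold change -2.60 ± 0.27 (SE), adjusted p = 0.00057). These genes were picked among the largest annotated decreases, and every B14_late library was below every B14_0 library for each.

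Genes commonly used as references did not all hold their level. TBP (Os03g0657000) had 36.3, 35.2 and 30.7 CPM in B14_late and 37.0, 37.2 and 45.9 CPM in B14_0 (log2 fold change -0.20 ± 0.15, SE, adjusted p = 0.34). SDHA (Os07g0134800) had 106, 108 and 102 CPM in B14_late and 101, 105 and 109.9 CPM in B14_0 (log2 fold change 0.04 ± 0.12, SE, adjusted p = 0.81). Neither was called, and the groups overlapped for SDHA and nearly met for TBP. ACTIN1 (Os03g0718100) had 90.7, 86.7 and 80.6 CPM in B14_late and 278, 308 and 424 CPM in B14_0 (log2 fold change -1.93 ± 0.20 (SE), adjusted p = 0.00052). Of 10 reference genes, ACTIN1 and RPS27a were the DEGs, RPS27a only with B14_0-3 included. Ubiquitin, GAPDH, eEF1alpha and LSD1 changed by less than 2-fold, with an adjusted p below 0.05 in both fits. Their log2 fold changes with all 6 libraries were 0.93, -0.63, 0.57 and 0.43 in that order.

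The change in B14 was then set against that in RP. A test of the difference of the late changes in 12 libraries found 60 of 25172 genes (0.238%) at an adjusted p below 0.05, 17 with the higher change in B14 and 43 with the lower. Without B14_0-3 it found 917 of 25649 genes (3.58%), 307 and 610, and all 60 were among them. This count was 31 without B14_0-1, 359 without B14_late-1, 3 or 4 without any other B14 library and 2 to 7 without an RP library. It was 0 with the replicate number as a block and 800 with DESeq2. Of the 201 grouped genes, 1 differed with all 12 libraries, which was OsNAS1, and 13 without B14_0-3. OsNAS1 had 0.951, 1.30 and 0.515 CPM in RP_late and 0, 0.254 and 0.0599 CPM in RP_0, so that both RP groups lay under every B14 library and RP_late lay above RP_0, where B14_late lay below B14_0. The difference of the log2 fold changes was -5.05 ± 0.73 (SE, adjusted p = 0.030), and -4.87 without B14_0-3 (adjusted p = 0.0014). This call was lost with the replicate block and without B14_0-2, B14_late-2, B14_late-3, RP_0-1, RP_0-3, RP_late-1 or RP_late-2.

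OsJRL had 745, 369.7 and 651 CPM in RP_late and 73.8, 62.2 and 66.7 CPM in RP_0. Its increase was larger in B14 by 1.79 on the log2 scale with an adjusted p of 0.080 in all 12 libraries, and by 2.16 (adjusted p = 0.0010) without B14_0-3. OsPOX8.1 had 13.2, 8.65 and 9.86 CPM in RP_late and 7.60, 8.21 and 7.90 CPM in RP_0. The difference for it was 1.102 (adjusted p = 0.096), and 1.03 (adjusted p = 0.037) without B14_0-3. The other grouped genes past the threshold without B14_0-3 were OsPR1#021, Os03g0221500, OsPOD, OsRLCK5, the histone genes Os01g0152300 and Os01g0502700, CDKB2, OsTUB1, OsGELP5 and NAS2. The change in B14 was further from 0 than that in RP for all of these that were tested in RP, with CDKB2 at -2.08 in B14 and -0.67 in RP and OsTUB1 at -1.89 and -1.22. Other strong responses did not differ at this threshold. OsPR2 had log2 fold changes of 5.21 in B14 and 5.20 in RP (difference 0.00 ± 0.19, SE), and RBBI3-3 had 5.004 and 4.78 (difference 0.23 ± 0.42, SE).

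Over the genes tested in both lines, group medians in B14 without B14_0-3 and in RP stood at 3.24 and 3.14 for 8 protease inhibitors, and at -1.65 and -0.91 for 16 cell division genes. They were -1.37 and -0.86 for 15 tubulin and cell wall genes and -1.19 and -0.72 for 11 chloroplast genes. With all 6 B14 libraries the B14 medians over these genes were 2.90, -1.50, -1.52 and -1.21 in the same order, so that for protease inhibitors B14 lay below RP with B14_0-3 and above RP without it. These medians are descriptions, and no test of a whole group was made.

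**Figure D5:**
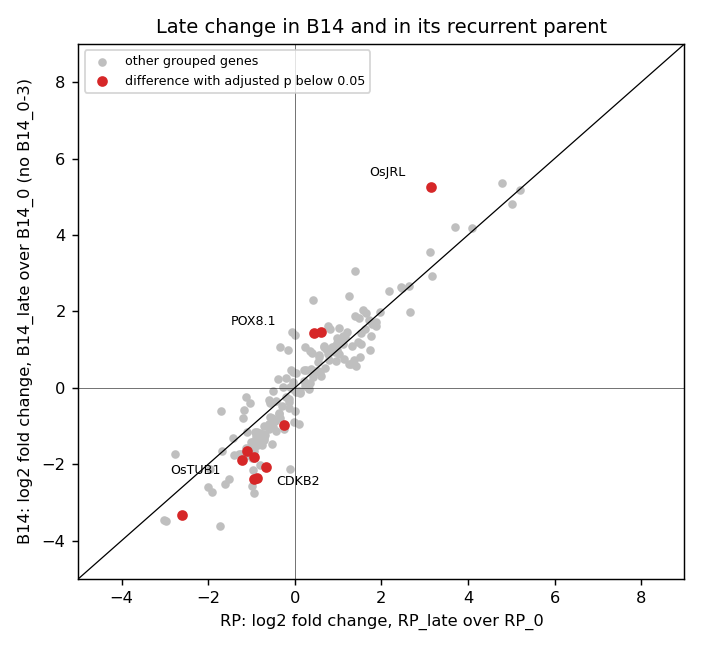
Log2 fold change of B14_late over B14_0 without B14_0-3 (vertical axis) against that of RP_late over RP_0 (horizontal axis) for grouped genes tested in both lines. Red points are the genes whose difference passed an adjusted p below 0.05 in the fit without B14_0-3. With all 12 libraries OsNAS1 alone of the 201 grouped genes passed. OsNAS1 and NAS2 are not drawn because they were too low to test in RP alone. OsJRL lies highest of the red points, at 5.26 in B14 and 3.14 in RP.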

How the data were processed

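Leaf sheath RNA was sequenced, and per the methods and the submitters' processing notes the authors aligned the reads to IRGSP-1.0 with HISAT2 2.0.4 and counted them per gene with HTseq. The deposited values are raw counts for 38978 genes and 36 libraries, with no normalization. The library kit and the infestation times differ between labels and methods, and the strand setting is not given in the sources used here. The summed counts were 13613563 to 17492144 in the 6 libraries, and intervals cover counting error only.

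Genes were kept with filterByExpr (minimum count 10), scaled by TMM and tested with edgeR 4.0.16 (quasi-likelihood, Benjamini-Hochberg) in R 4.3.3 on the 6 libraries alone, and the fit was checked on simulated data. The difference between lines was the line by stage term in 12 libraries. DESeq2 1.42.0 was an alternative. Printed CPM use TMM factors over all 36 libraries and SE is the log2 fold change over the root of the F statistic. Up to 4 genes per group were named (DEGs in both fits, at least 5 CPM in the higher group, largest fold), with the 10 largest annotated increases and decreases (at least 10 CPM), OsPOX8.1, 4 reference genes and the 5 smallest p of the difference between lines. Further members were named after their values were seen. Members and lists were chosen with earlier results of these data known. Of the planned tissue markers only OsNAS1 and Glua1 had an annotation. LHCB was not on the planned list, and no planned leaf marker was examined.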

Additional observations from a re-analysis of the deposited data

Results flagged for a closer look

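The late change differed between B14 and RP for 60 of 25172 genes in the test of the difference itself, and 5 annotated genes among them are given here. Glua1 rose more in B14, by 3.01 on the log2 scale, and had 15.4, 21.0 and 21.0 CPM in B14_late, 0.224, 0.129 and 0.316 CPM in B14_0, 12.4, 9.11 and 15.2 CPM in RP_late and 1.40, 0.891 and 1.14 CPM in RP_0. OsNAS1 differed by -5.05, and this Os03g0307300 late change, B14 minus RP, was -6.56 without RP_0-2. The saposin-like gene Os05g0335100 differed by 2.09. It had 46.7, 45.6 and 42.7 CPM in B14_late and 44.3, 46.7 and 43.7 CPM in B14_0, where it was no DEG, and 0.535, 0.465 and 0.662 CPM in RP_late and 2.13, 2.80 and 2.16 CPM in RP_0, a level far under that of B14 at both stages. The X8-domain gene Os10g0347000 differed by -3.56, with 0.452, 1.00 and 0.664 CPM in B14_late and 3.92, 5.50 and 4.74 CPM in B14_0, against 1.72, 2.51 and 2.28 CPM in RP_late and 1.73, 0.763 and 1.02 CPM in RP_0. The glycoside hydrolase Os01g0296700 differed by -1.27, falling in both lines, with 12.5, 14.2 and 11.2 CPM in RP_late and 37.7, 36.1 and 33.4 CPM in RP_0. With all 12 libraries the adjusted p was 0.0064 for Os05g0335100 and 0.030 for each of the other 4. Without B14_0-3 it was between 0.0010 and 0.0049. With the replicate number as a block none of the 5 passed. The call of Os05g0335100 was also lost without RP_late-1 or RP_late-2. Those of the other 4 were each lost without B14_0-2, B14_late-2, B14_late-3, RP_0-3, RP_late-1 or RP_late-2, and some of them without further libraries. Groups of 3 libraries are too small for a test of single outlying samples.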

How the results depend on the processing

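The counts of up-regulated, down-regulated and all DEGs in B14_late/B14_0 stayed within 1.5 times the reported ones under each alternative: DESeq2 size factors, no filter, DESeq2, the unadjusted p, 1 fit of all 36 libraries, scaling by library totals (added after seeing the data) and leaving out each library. Leave-one-out fits gave 4660 to 6620 DEGs, 2311 to 3415 up-regulated and 2349 to 3401 down-regulated. Deviations from the group means correlated at -0.582, 0.334 and -0.436 between libraries of equal replicate number. Deviations within a group of 3 sum to 0 and B14_0-3 stood apart, so these values cannot decide whether equal numbers mark pairs. With the replicate block 5170 genes were DEGs.

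The number of genes whose late change differed between B14 and RP was 60. It was 0 with the replicate block, where 2915 genes had an unadjusted p below 0.05, and 800 with DESeq2. Without 1 library it ranged from 2 to 917. The cause was not tested.

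Of 78 named genes, 66 kept their direction and call with DESeq2, DESeq2 size factors, no filter, the replicate block, the fit of all 36 libraries and each library left out. In at least 1 of these, 10 lost the call and 2 changed sign. Most of the 78 genes had been named because they were DEGs in both fits, with preference for large fold changes. Their outcome in 1 of the leave-one-out fits was therefore fixed by the choice. The 66 do not measure how often other DEGs keep their call. Single genes were not refitted with scaling by library totals. For SDHA, the Os07g0134800 log2 fold change, never called, was -0.0005997 in the fit of all 36 libraries and -0.007157 to 0.05775 without 1 library. The Os05g0335100 log2 fold change, not called in B14, was -0.02662 to 0.07717 without 1 library. Depth limits low genes such as Os01g0348800, with 83 reads in all.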
